A study of Homo sapiens with 2 samples.

Results

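The spliceosomal small nuclear RNA (snRNA) genes described here were the genes of type snRNA in the GENCODE annotation mapped to GRCh37 (hg19 coordinates) that belong to the U1, U2, U4, U5, U7, U11, U12, U4atac and U6atac families. Variant U1 genes (RNVU1) and the genes RNU6-1, RNU6-2, RNU6-7, RNU6-8 and RNU6-9 were included by name. The rule found 579 genes. Of these, 570 lay on chromosomes 1 to 22 and X, which hold 63827 annotated genes, and 9 lay on chromosome Y, where the list has no peak. The 570 genes comprised 13 genes transcribed by RNA polymerase II, 21 variant U1 genes, 6 genes transcribed by RNA polymerase III and 530 pseudogenes. Pseudogenes are copies whose symbol ends in P. Variant U1 genes are also of the polymerase II type but were kept as a class of their own. The term polymerase II genes leaves them out below. RNU2-1, RNU11 and RNU12 were not analysed here. The class was selected on measured values, since several of its members lay under the peaks with the largest fold enrichment in the list, so that the presence and the fold enrichment of peaks at these genes are given as a description and without a test.

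The transcription factor MYBL2 (alias B-MYB) was mapped by chromatin immunoprecipitation and sequencing (ChIP-seq) in wild-type A673 cells, a cell line established from Ewing sarcoma. The antibody recognises MYBL2 according to the labels, and the methods of the study specify the phosphorylated protein. There was 1 ChIP library and 1 library of input DNA from the same line, so no value has a replicate error. The deposited list held 66954 peaks, and the depth recovered from it corresponded to about 56800000 ChIP reads.

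Spliceosomal snRNAs base-pair with pre-mRNA and with each other to remove introns. U1, U2, U4, U5 and U6 form the major spliceosome, U11, U12, U4atac and U6atac together with U5 form the minor one, and U7 acts on histone mRNA 3′ ends instead of introns. All of these genes share a proximal sequence element upstream of the start that the factor SNAPc recognises. A TATA box beside it directs U6 and U6atac genes to polymerase III, whereas the others use polymerase II and the Integrator complex at a 3′ box downstream of the gene.

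The promoters of the genes on which the results turn are shown from -75 to -16 bp of the gene start, on the strand of the gene, in the GRCh37 reference. Capitals mark the first ACCNT, the core of the proximal sequence element, at 45 to 75 bp upstream, and TATA at 16 to 40 bp upstream.
RNU4-2 (chr12:120729722-120729781, minus strand): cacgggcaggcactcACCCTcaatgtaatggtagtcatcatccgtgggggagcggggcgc
RNU4-1 (chr12:120731056-120731115, minus strand): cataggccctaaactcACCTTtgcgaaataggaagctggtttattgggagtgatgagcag
RNU5F-1 (chr1:45187590-45187649, minus strand): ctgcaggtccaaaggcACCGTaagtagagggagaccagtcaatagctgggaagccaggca
RNU4ATAC (chr2:122288382-122288441, plus strand): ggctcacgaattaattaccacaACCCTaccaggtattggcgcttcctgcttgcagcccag
RNU5B-1 (chr15:65596940-65596999, plus strand): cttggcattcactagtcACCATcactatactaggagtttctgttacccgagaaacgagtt
RNU5A-1 (chr15:65588314-65588373, plus strand): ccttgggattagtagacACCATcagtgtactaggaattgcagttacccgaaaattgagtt
RNU7-1 (chr12:7052904-7052963, plus strand): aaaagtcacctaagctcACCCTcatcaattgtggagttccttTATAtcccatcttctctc
RNU1-2 (chr1:17222400-17222459, plus strand): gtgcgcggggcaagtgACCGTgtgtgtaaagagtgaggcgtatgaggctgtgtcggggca
RNU2-2P (chr11:62609297-62609356, minus strand): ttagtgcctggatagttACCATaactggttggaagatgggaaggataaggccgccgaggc
RNU6-1 (chr15:68132399-68132458, minus strand): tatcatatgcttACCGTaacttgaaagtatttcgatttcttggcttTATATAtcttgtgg
RNU6-2 (chr19:1021446-1021505, plus strand): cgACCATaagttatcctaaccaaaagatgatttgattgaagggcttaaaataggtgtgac
RNU6-7 (chr14:32671176-32671235, plus strand): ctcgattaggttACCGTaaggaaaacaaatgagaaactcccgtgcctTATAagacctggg
RNU6-8 (chr14:32672491-32672550, minus strand): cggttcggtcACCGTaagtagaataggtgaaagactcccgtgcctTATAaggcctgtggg
RNU6-9 (chr19:893409-893468, plus strand): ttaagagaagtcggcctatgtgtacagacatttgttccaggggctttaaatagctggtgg
RNU6ATAC (chr9:137029702-137029761, minus strand): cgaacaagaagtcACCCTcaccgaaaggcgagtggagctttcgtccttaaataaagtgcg
The core lay at -60 to -58 bp in RNU4-2, RNU4-1, RNU5F-1, RNU5B-1, RNU5A-1, RNU7-1, RNU1-2 and RNU2-2P. In RNU6-1, RNU6-7 and RNU6-8 it lay at -65 to -63 bp and was followed by a TATA box. The first ACCNT lay at -53 bp in RNU4ATAC, at -73 bp in RNU6-2 and at -62 bp in RNU6ATAC, and RNU6-9 had none in this window.

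A gene was counted with a peak when a peak shared at least 1 base with the gene or with 500 bp either side. By this rule 10 of 13 polymerase II genes (76.9%, exact binomial interval 46.2 to 95%) and 6 of 6 polymerase III genes (interval 54.1 to 100%) had a peak. Of the variant U1 genes 4 of 21 had one (19.0%, interval 5.45 to 41.9%), and of the pseudogenes 33 of 530 (6.23%, interval 4.32 to 8.63%). For reference, 31.2% of all annotated genes had a peak by the same rule, as did 8.96% of other genes of at most 200 bp. The rule covers the whole gene, so the 31.2% includes peaks anywhere within long genes. Among the 1327 other genes of type snRNA, mostly U6 pseudogenes, the share was 3.32%. These intervals cover counting error only. The members nearest to the edge of the rule were RNU7-38P, with a peak 498 bp away, and RNU7-120P, with a peak 538 bp away.

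**Figure D1:**
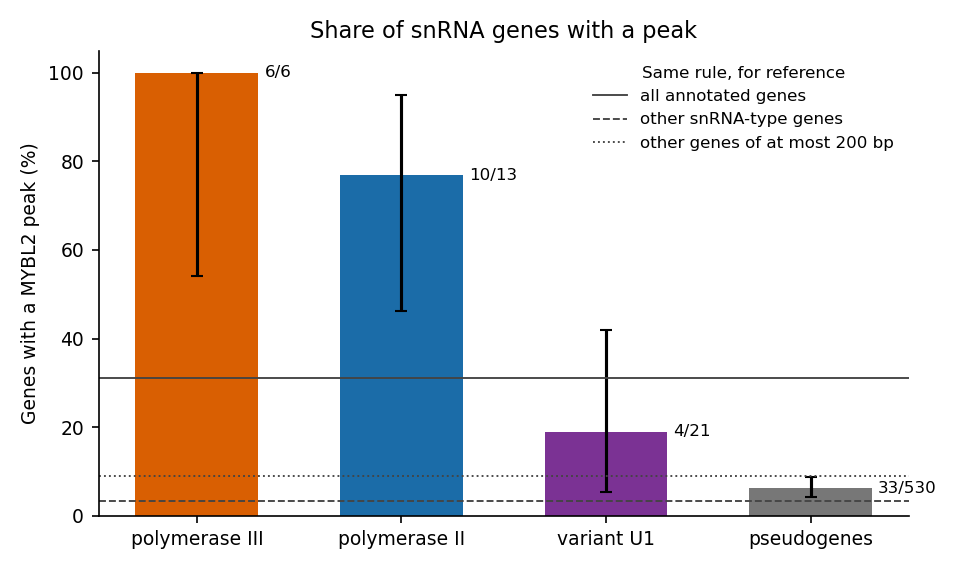
Percent of genes with a MYBL2 peak in each class, with exact 95% binomial intervals and the number of genes; horizontal lines give the shares of reference genes under the same rule. Polymerase II and III genes lie above the 31.2% of all annotated genes, many of which are longer. Pseudogenes at 6.23% lie between the 8.96% of other genes of at most 200 bp and the 3.32% of other genes of type snRNA.

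The strength of the peaks differed between the classes. Fold enrichment, a linear ratio given by the peak caller, compares the number of overlapping fragments at the summit (the pileup) with the background expected there. The best peaks of polymerase II genes had a median fold enrichment of 39.1 (range 18.6 to 60.0), those of variant U1 genes 20.7 (11.7 to 32.7), those of polymerase III genes 7.61 (3.88 to 10.8) and those of pseudogenes 4.56 (2.48 to 51.3). All peaks of the list had a median of 3.79. Among genes with a peak, the weakest polymerase II gene was RNU1-2 at 18.6 (Poisson interval 14.9 to 23.1). It lay above the strongest polymerase III gene, RNU6-2 at 10.8 (7.98 to 14.3), so the ranges of these classes did not overlap. Variant U1 genes came closer, with RNVU1-14 at 11.7 (8.76 to 15.3) and RNVU1-18 at 13.9 (12.3 to 15.6), whose intervals overlap that of RNU6-2. The ratio of the polymerase II to the polymerase III median was 5.13 for fold enrichment and 7.21 for the pileup, 259.5 against 36 fragments. Of the 69 peaks in the list with a pileup of at least 200 fragments, 13 were at members of all classes, as were 57 of all 66954 peaks. The members were picked from the strongest peaks, so this count is description only. Leaving out RNU1-2, pileups of the polymerase II genes spanned 236 to 286 fragments and their backgrounds 3.45 to 7.46 fragments, so the backgrounds spread more widely than the pileups as a ratio.

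**Figure D2:**
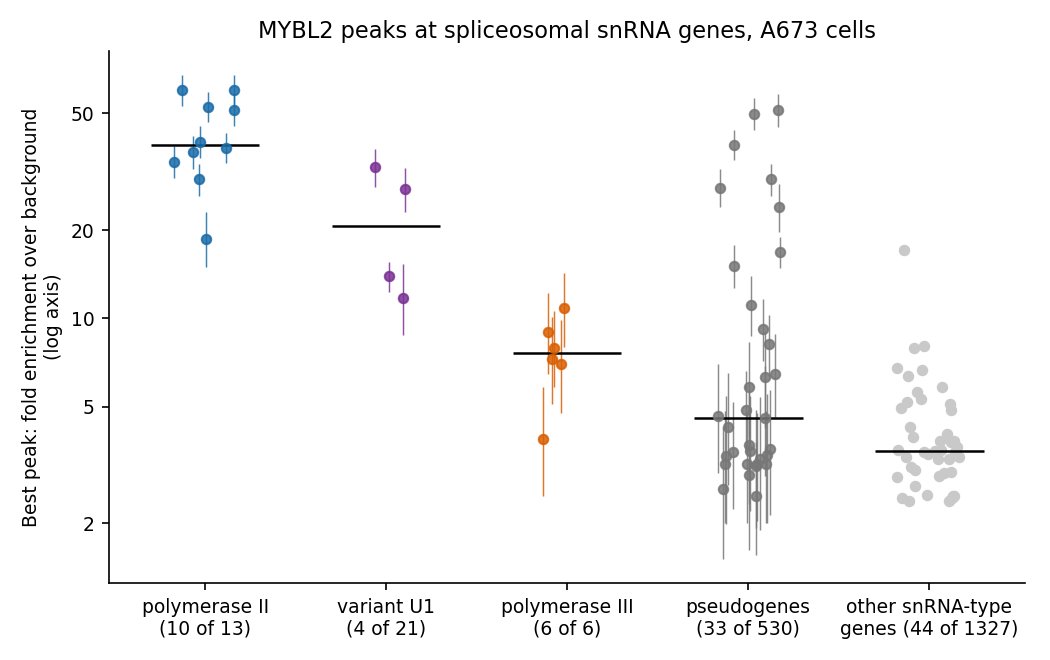
Best fold enrichment of each gene with a peak, on a log axis, with exact 95% Poisson intervals of the pileup for the members, and the median of each class as a black line; the number of genes with a peak is given under each class. Polymerase II genes lie between 18.6 and 60.0, polymerase III genes between 3.88 and 10.8, and pseudogenes span 2.48 to 51.3.

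Among the polymerase II genes the highest fold enrichment was at the U4 pair. RNU4-2 (chr12:120729566-120729706, minus strand) and RNU4-1 (chr12:120730900-120731040, minus strand) encode U4, which holds U6 in an inactive pairing until the spliceosome is activated. Both lay under the same peak of 3068 bp, with a fold enrichment of 60.0 (interval 53 to 67.6), a pileup of 266 fragments and rank 2 of 66954. The background of this peak was 3.45 fragments, the floor of the list. RNU5D-1 and RNU5F-1 had larger pileups, 286 and 285 fragments, over higher backgrounds of 6.53 and 4.44. The summit of the U4 peak was 221 bp downstream of the RNU4-2 start and 1555 bp downstream of the RNU4-1 start. The list thus holds no summit of its own for RNU4-1.

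All 5 U5 genes, whose RNA aligns the exons in both spliceosomes, had a peak. RNU5F-1 (chr1:45187458-45187574, minus strand) reached 52.6 (46.7 to 59.1) with 285 fragments. RNU5B-1 (chr15:65597015-65597130, plus strand) reached 40 (35.3 to 45.1) with 263, and RNU5D-1 (chr1:45196727-45196842, minus strand) reached 38.1 (33.8 to 42.8) with 286. RNU5A-1 (chr15:65588389-65588504, plus strand) had 36.8 (32.4 to 41.8) with 242 fragments. The intervals of RNU5B-1, RNU5D-1 and RNU5A-1 overlap. RNU5F-1 and RNU5D-1 had almost equal pileups, and the higher ratio of RNU5F-1 came with a background of 4.44 fragments against 6.53, which the intervals hold fixed. RNU5E-1 (chr1:11968209-11968328, plus strand) had 29.8 (26.2 to 33.7) in a peak of 2492 bp that also covered the pseudogene RNU5E-4P, which lies on the opposite strand.

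RNU4ATAC (chr2:122288457-122288583, plus strand), the U4 counterpart of the minor spliceosome, lies in the gene CLASP1 and had a fold enrichment of 51.4 (45.1 to 58.4) with 236 fragments. RNU7-1 (chr12:7052979-7053041, plus strand), the functional U7 gene, had 34.1 (30.1 to 38.6) with 256 fragments. RNU7-1 lies in C12orf57, and its summit was 4 bp from a start of that gene, so signal of the snRNA and of the coding promoter cannot be told apart there.

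U1, which pairs with the 5′ splice site, stood apart from the other polymerase II genes. RNU1-2 (chr1:17222475-17222638, plus strand) had a peak of 318 bp with a fold enrichment of 18.6 and 82 fragments (interval 65.2 to 102). RNU1-1, RNU1-3 and RNU1-4 had no peak, and their nearest peaks were 14.5, 22.2 and 95.9 kb away. These are the 3 polymerase II genes without a peak. The 164 bases of RNU1-1, RNU1-2, RNU1-3, RNU1-4 and RNVU1-18 are identical in GRCh37.

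Sequence shared between copies limits where a read can be placed, and the authors kept reads with a mapping quality of at least 20. The share of 100-base words, the read length, found once in the genome was therefore computed over each gene and 500 bp either side. RNU1-3 and RNU1-4 had 0% unique words. RNU1-1 had 79.7% and no peak, and RNU1-2 had 70.2% and a peak. Within RNU1-2, 31.9% of the words touching the gene were unique, against 87.0% upstream and 78.6% downstream, and its peak began 34 bp inside the gene. The other 9 polymerase II genes had 100% unique words, and the U6 genes between 98.8 and 99%.

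Variant U1 genes, most of which lie in repeated segments of the long arm of chromosome 1, also varied widely in unique words. The 4 with a peak had 76.3 to 100% unique words (median 96.8%). The 17 without a peak had 0 to 100% (median 9.39%), and 12 of them had under 50%. Taking U1 and variant U1 together, 5 of the 11 genes with at least 50% unique words had a peak, and none of the 14 genes below 50% had one. RNVU1-17, the RNVU1-8 copy at chr1:146551295-146551419 and RNVU1-13 had 100, 100 and 75.4% unique words and no peak. Whether the missing peaks at the repeated copies come from unplaceable reads was not tested.

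RNVU1-6 (chr1:145382757-145382920, plus strand) had the strongest peak of the variants, 32.7 (28.1 to 37.7) with 184 fragments. The RNVU1-8 copy at chr1:146556163-146556303 (minus strand) had 27.5 (23 to 32.6) with 129 fragments, and RNVU1-14 (chr1:148241465-148241628, plus strand) had 11.7 (8.76 to 15.3) with 51. RNVU1-18 (chr1:149224058-149224221, minus strand) had 13.9 (12.3 to 15.6) with 285 fragments, over a local background of 19.6 fragments against the floor of 3.45 in the list. RNVU1-18 and the pseudogene RNU1-59P, with 266 fragments over a background of 14.9, thus matched the pileups of the U4 and U5 genes at a lower ratio. Backgrounds over 10 fragments occurred at 0.521% of all peaks and at 3 of the 57 peaks at these genes.

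**Figure D3:**
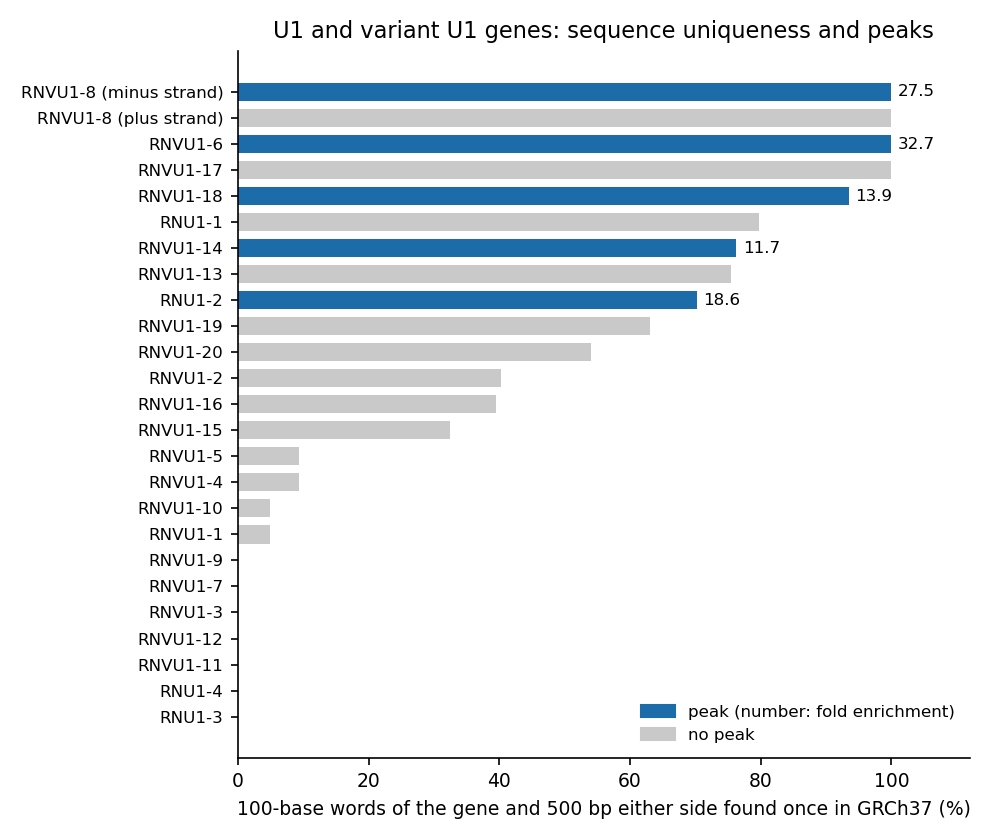
Percent of 100-base words found once in GRCh37, over each U1 and variant U1 gene with 500 bp either side; blue bars are genes with a peak, with its fold enrichment, and grey bars genes without one. The 5 genes with a peak lie between 70.2 and 100%, and no gene below 50% has a peak.

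**Figure D4:**
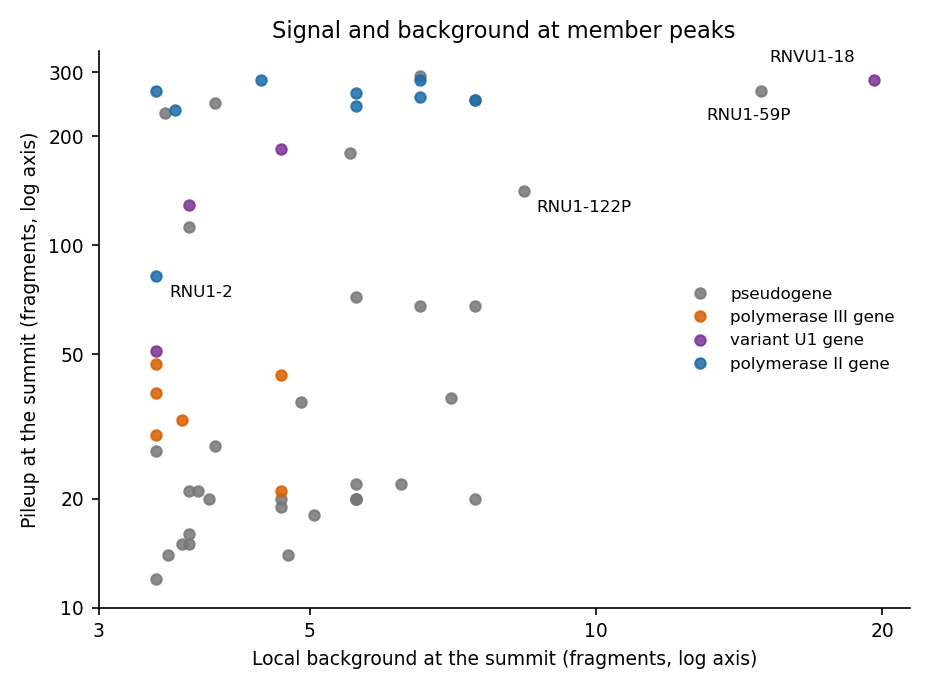
Pileup at the summit against the local background, both in fragments on log axes, for the best peak of each gene with a peak. RNVU1-18 and RNU1-59P have backgrounds of 19.6 and 14.9 fragments and pileups of 285 and 266, in the range of the polymerase II genes, and polymerase III genes lie between 21 and 47 fragments.

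All 6 polymerase III genes had weaker peaks. The 5 U6 genes encode the catalytic RNA of the major spliceosome. RNU6-2 (chr19:1021521-1021627, plus strand) had a fold enrichment of 10.8 with 47 fragments, RNU6-9 (chr19:893484-893590, plus strand) 8.99 (6.45 to 12.2) with 39, and RNU6-1 (chr15:68132277-68132383, minus strand) 7.94 (5.82 to 10.6) with 44. RNU6-8 (chr14:32672369-32672475, minus strand) had 6.96 (4.77 to 9.85) with 30 fragments, and RNU6-7 (chr14:32671251-32671357, plus strand) had 3.88 (2.47 to 5.84) with 21. RNU6ATAC (chr9:137029561-137029686, minus strand), the U6 counterpart of the minor spliceosome, had 7.28 (5.08 to 10.1) with 33 fragments. The intervals of RNU6-2, RNU6-9, RNU6-1, RNU6-8 and RNU6ATAC overlap one another, and that of RNU6-7 lies below those of RNU6-2 and RNU6-9 with the backgrounds held fixed.

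The position of the summit also separated the polymerases. Of the 10 polymerase II genes with a peak, 1 had the summit upstream of the gene, 3 within it and 6 past it. The median was 158 bp downstream of the start, or 140 bp over the 9 genes with a summit within the 500 bp window (range -8 to 221 bp). At RNU5F-1, RNU5D-1, RNU4ATAC, RNU1-2, RNU5A-1, RNU5B-1 and RNU4-2 the summit lay between 12 bp before and 81 bp after the last base of the gene. RNU7-1 at 22 bp and RNU5E-1 at -8 bp had it near the start. At all 6 polymerase III genes the summit of the best peak was upstream, at -392 to -329 bp in the U6 genes and at -630 bp in RNU6ATAC, with a median of -378.5 bp. The best peak reached into the gene at 10 of 10 polymerase II genes and at 3 of 6 polymerase III genes. RNU6-7 had a second, weaker peak (fold enrichment 2.66, 19 fragments against 21) that covered the gene with its summit at 190 bp. At protein-coding gene starts with a peak within 500 bp, the median summit position was 35 bp (quartiles -93 and 156 bp).

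**Figure D5:**
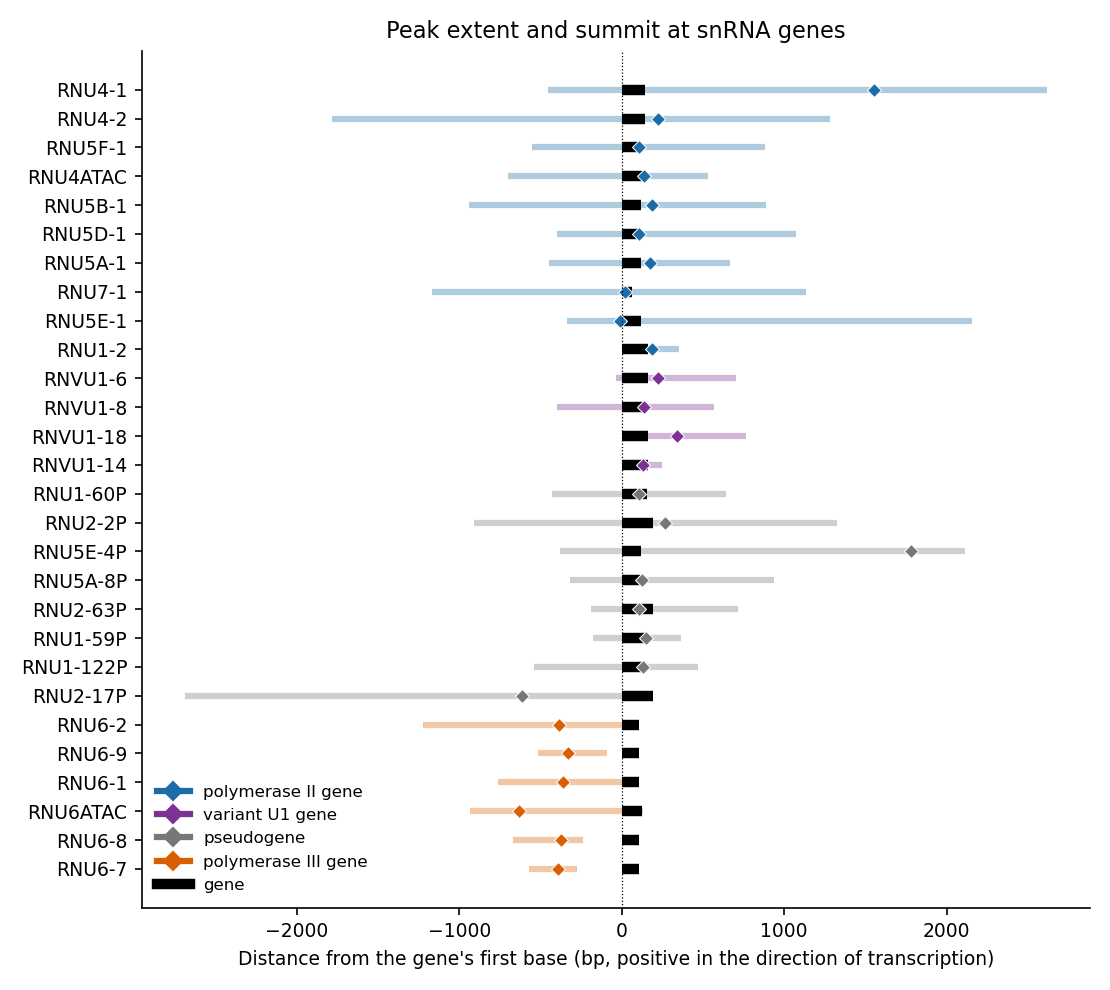
Extent of the best peak (pale bar) and its summit (diamond) relative to the first base of the gene (black bar) in bp, for genes with a symbol not ending in P and for 8 of the 9 pseudogenes with a fold enrichment of at least 10. Summits of polymerase II genes lie from -8 to 221 bp except 1555 bp at RNU4-1, whose peak it shares with RNU4-2, and those of polymerase III genes from -630 to -329 bp.

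Other starts near these peaks differed between the genes. Within 1000 bp of a protein-coding or lncRNA start lay 34.3% of all peaks, the best peaks of 3 of the 10 polymerase II genes (RNU4ATAC, RNU7-1 and RNU5E-1) and those of 3 of the 6 polymerase III genes. The summit of RNU6-9 was 3 bp from a start of MED16, that of RNU6-2 14 bp from a start of TMEM259 and that of RNU6-7 83 bp from a lncRNA start. Among the polymerase II genes the distance was 3 bp at RNU5E-1, 4 bp at RNU7-1 and 276 bp at RNU4ATAC, and among the variant U1 genes 123 bp at RNVU1-14 and 225 bp at RNVU1-6. At all of these genes signal of the snRNA and of the neighbouring start cannot be told apart. RNU6-1, RNU6-8 and RNU6ATAC had summits 1530, 1905 and 3575 bp from the nearest such start and fold enrichments of 6.96 to 7.94. The list held 764 peaks at least as strong as that of RNU1-2, and 727 of them (95.2%) lay within 1000 bp of a protein-coding or lncRNA start. Of the 37 that did not, 9 (24.3%) were at snRNA genes of the classes counted here, as were 7 of the 727 near such a start (0.963%). The other 28 of the 37 included peaks at the small nucleolar RNA genes SNORD118 and U3, which were singled out after their values were seen. The cutoff is the value of a member and the class was picked from the strongest peaks, so these counts are description only.

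The fold enrichments of pseudogenes with a peak spread from 2.48 to 51.3 and are divided here at 5 and 10 only for description. Of the 33, 14 had a fold enrichment of at least 5 and 9 one of at least 10, while 19 lay below 5 with a median of 3.38 and a median pileup of 20 fragments. Other genes of type snRNA had a peak of at least 5 at 11 of 1327 (0.829%), with a median of 3.54 over their 44 genes with a peak. The 14 stronger pseudogenes are 2.64% of 530. Of the 33, 18 lay inside a protein-coding gene, as did 258 of all 530, and the best peak reached the pseudogene itself at 17.

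Of the pseudogenes, 6 had values within the range of the polymerase II genes, among them RNU2-63P at 23.9, and 4 of the 5 strongest are described here. RNU1-60P (chr17:56736510-56736666, minus strand), in TEX14, had a fold enrichment of 51.3 (45 to 58.4) with 231 fragments. RNU2-2P (chr11:62609091-62609281, minus strand), a U2 copy in WDR74, had 39.0 (34.7 to 43.8) with 293 fragments, the largest pileup of the list. It was placed among the pseudogenes by its symbol alone, and these data do not show whether it is functional. With RNU2-2P, RNU1-27P and RNU1-28P moved from the pseudogenes to the other genes, 32 of 527 pseudogenes (6.07%) and 21 of 43 other genes (48.8%) had a peak. The summits of RNU1-60P and RNU2-2P lay 107 bp from a lncRNA start and 267 bp from a start of WDR74, so signal of these copies and of those starts cannot be told apart. The interval of RNU2-2P overlaps those of RNU5B-1, RNU5D-1 and RNU5A-1, and that of RNU1-60P overlaps that of RNU4ATAC. RNU5E-4P (chr1:11969865-11969984, minus strand) shared the peak of RNU5E-1 at 29.8, and RNU5A-8P (chr1:210547498-210547611, minus strand), in HHAT, had 27.8 (23.9 to 32.2) with 180 fragments. Summits lay 106, 267 and 122 bp downstream of the start at RNU1-60P, RNU2-2P and RNU5A-8P against -8 to 221 bp at the polymerase II genes with a summit in the window.

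By family, 4 of 26 U5 pseudogenes, 5 of 69 U2 pseudogenes, 6 of 108 U1 pseudogenes and 6 of 87 U4 pseudogenes had a peak. The U7 pseudogenes, the largest family, had one at 9 of 178 (5.06%), with a highest fold enrichment of 8.15 at RNU7-27P, whose peak was at a start of RBM28. U6atac pseudogenes had a peak at 1 of 40, U4atac pseudogenes at 2 of 17, U11 pseudogenes at 0 of 4 and the single U12 pseudogene at none. The 9 pseudogenes of at least 10 were 3 of U1, 3 of U2 and 3 of U5.

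Promoter letters were compared with those of all annotated gene starts. The proximal sequence element was sought as ACC, any 8 bases and AAAGT at 40 to 80 bp upstream with at most 2 mismatches. It was found in 6 of 13 polymerase II genes, 19 of 21 variant U1 genes, 2 of 6 polymerase III genes and 80 of 530 pseudogenes (15.1%), against 9.61% of all gene starts. The shorter core ACCNT at 45 to 75 bp, chosen after the flanks were seen, was present in 13 of 13, 19 of 21, 5 of 6 and 61 of 530 (11.5%), against 7.53% of all starts. Of the 9 pseudogenes with a fold enrichment of at least 10, 7 held this core, as did 2 of the 24 with a weaker peak and 52 of the 497 without a peak. RNU1-60P, RNU2-17P and RNU6-9 were without it in this window. Since the core was chosen on these flanks, its counts describe these copies and support nothing further.

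TATA at 15 to 40 bp upstream was present in 3 of 6 polymerase III genes, RNU6-1, RNU6-7 and RNU6-8, in 1 of 13 polymerase II genes, RNU7-1, and in 6.83% of all gene starts. The octamer ATTTGCAT, on either strand within 300 bp upstream, was present in 7 of 13 polymerase II genes, 4 of 6 polymerase III genes, 0 of 21 variant U1 genes and 25 of 530 pseudogenes, against 2.39% of all gene starts. It is the site of the POU2F1 activator. CCCANNATG, the start of a site of the activator ZNF143, was found in 4 of 13 polymerase II genes, RNU5B-1, RNU5D-1, RNU5E-1 and RNU5F-1, and in 4.54% of all gene starts. These matches describe letters only.

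The summits of the 6 polymerase II genes and the 2 polymerase III genes with the largest fold enrichment are shown to place the MYB letters, with 30 bp either side of the summit on the strand of the gene and AACNG, in either orientation, in capitals.
RNU4-2 (chr12:120729455-120729515, minus strand): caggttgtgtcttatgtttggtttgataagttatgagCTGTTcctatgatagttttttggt
RNU5F-1 (chr1:45187440-45187500, minus strand): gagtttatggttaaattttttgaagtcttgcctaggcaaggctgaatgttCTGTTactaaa
RNU5D-1 (chr1:45196706-45196766, minus strand): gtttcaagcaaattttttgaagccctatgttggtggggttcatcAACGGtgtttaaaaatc
RNU4ATAC (chr2:122288567-122288627, plus strand): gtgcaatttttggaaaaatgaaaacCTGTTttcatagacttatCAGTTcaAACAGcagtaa
RNU5B-1 (chr15:65597173-65597233, plus strand): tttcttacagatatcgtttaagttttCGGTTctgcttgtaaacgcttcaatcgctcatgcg
RNU5A-1 (chr15:65588535-65588595, plus strand): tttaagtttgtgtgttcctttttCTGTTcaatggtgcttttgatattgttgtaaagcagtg
RNU6-2 (chr19:1021106-1021166, plus strand): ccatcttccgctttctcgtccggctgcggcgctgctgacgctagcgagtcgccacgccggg
RNU6-9 (chr19:893125-893185, plus strand): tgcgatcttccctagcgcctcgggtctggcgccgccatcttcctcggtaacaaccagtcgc
Each of the 6 polymerase II genes shown held AACNG in this stretch, and RNU6-2 and RNU6-9 did not. Of the polymerase II genes not shown, RNU5E-1 held it in a stretch of this size, RNU7-1 and RNU1-2 did not, and RNU4-1 shares the RNU4-2 summit. Of the polymerase III genes not shown, RNU6-7 held it and RNU6-1, RNU6-8 and RNU6ATAC did not. Over the wider window of 50 bp either side, AACNG was present at 7 of 9 polymerase II peaks (exact interval 40 to 97.2%), 2 of 6 polymerase III peaks (4.33 to 77.7%), 1 of 4 variant U1 peaks and 13 of 33 pseudogene peaks, against 44.1% of all peaks and 45.8% of the 764 peaks at least as strong as that of RNU1-2. RNU1-2 and RNU7-1 were the polymerase II genes without it. The interval of the polymerase II peaks includes the share of all peaks. TTTGAA, the cell cycle genes homology region bound by the MuvB complex, was present at 4 of 9 polymerase II peaks (13.7 to 78.8%), those of RNU4ATAC, RNU5D-1, RNU5E-1 and RNU5F-1. All peaks held it at 9.28% and the 764 strong peaks at 7.46%. At RNU5D-1, RNU5E-1 and RNU5F-1 the match lay inside the U5 gene itself, and at RNU4ATAC it lay outside the gene. RNU5D-1 and RNU5F-1 hold it in the same letters, which can be seen in the stretches printed above, so these are not independent matches. TTTGAA was found at 0 of 6 polymerase III peaks, with an exact upper bound of 45.9%.

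The protein factors of snRNA transcription and processing were examined through their promoters. All 36 genes of a list of SNAPc, activators, Integrator, the little elongation complex and export or capping factors had a peak within 1000 bp of a start, against 59.4% of protein-coding genes. Their best peaks had a median fold enrichment of 11.8 (range 4.85 to 28.3), and those of all 11941 protein-coding genes with a peak 8.67. The highest values were at the Integrator subunits INTS6, 28.3 (23.8 to 33.5), and INTS9, 23.8 (19.5 to 28.8), and at MEPCE, the capping enzyme of 7SK RNA, 26.0 (21.9 to 30.5). The lowest was at COIL, which encodes the Cajal body protein coilin, 4.85 (3.09 to 7.3). With the variant U1 genes left out, the median of the promoters, 11.8, lay below the value of each polymerase II snRNA gene with a peak. Of the variant U1 genes with a peak, RNVU1-14 at 11.7 lay below that median and the others above it.

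Other polymerase III genes with the same promoter type had peaks like those of U6. RMRP, the RNA of RNase MRP, had a fold enrichment of 9.68 (7.14 to 12.8), RNY5 9.16 (6.76 to 12.2), RN7SK 7.94 (5.82 to 10.6) and RNY1 4.22 (2.66 to 6.41). Their summits lay at -354, -307, -363 and -292 bp, all upstream, as at the U6 genes. Protein-coding or lncRNA starts near these summits were not examined, so signal of such starts cannot be told apart. RNY3 and RNY4 had no peak, and RPPH1 was not analysed here.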

How the data were processed

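ChIP-seq of MYBL2 and 1 input were made in A673 cells. The authors aligned 100-base single-end reads to hg19 with Bowtie2, kept a mapping quality of at least 20, and called narrow peaks with MACS2 against the input at q 0.05. The submitters' processing notes give Bowtie2 2.1.10 and MACS2 2.0.10. The treatment of duplicate reads and the step that cleaned the list are not given in the sources used here. The deposited list gives for each peak the authors' score, their fold enrichment (a linear ratio), −log10 p and −log10 q, and the summit.

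From these, the whole-number pileup and the background were recovered for all 66954 peaks (largest misfit 3.49e-05 in −log10 p). The background floor of 3.45 fragments and a fragment length of 164 bp, the smallest peak width, give about 56800000 ChIP reads. Intervals are exact 95% Poisson or binomial intervals and cover counting error only; for fold enrichment the background was held fixed. A pileup of 20 has an interval of 12.2 to 30.9.

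Genes came from GENCODE version 44 mapped to GRCh37, and sequence from GRCh37; 0 peaks lay beyond a chromosome end. The symbol RNVU1-8 stands for 2 genes, which were kept apart by identifier. Words of 100 bases were compared with the whole genome on both strands. Motifs were sought as written in the report. Python 3.11.15 code (numpy 2.4.6, pandas 2.3.3, scipy 1.17.1, pysam 0.24.0) was tested on simulated data. Named genes were all members whose symbol does not end in P, the 5 pseudogenes with the largest best fold enrichment (1 of them is not reported here by name) and, of the factor lists, the 3 genes with the largest fold enrichment and those without a peak. Further genes are named where a count or comparison turns on them. The members and lists were chosen with earlier results of these data known. With 1 library per group no test was run.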

Additional observations from a re-analysis of the deposited data

How the results depend on the processing

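Class shares, medians, summit positions, promoter element shares and word uniqueness were recomputed under alternative settings, which gave 90 values in all. Of these, 70 stayed within the interval or tolerance of the reported value, 20 moved and 0 changed direction. Shares, median fold enrichments and word uniqueness are never negative, so a change of direction was not possible for them. Pseudogenes with a peak were 3.58% with the gene alone, 9.06% with 1000 bp either side, 3.77% at −log10 q of at least 5, 2.64% at fold enrichment of at least 5 and 4.15% without peaks at a protein-coding or lncRNA start. Without such peaks, polymerase II genes fell from 76.9 to 53.8%, polymerase III genes from 100 to 50% and variant U1 genes from 19.0 to 9.52%. All 40 copies whose symbol does not end in P, at 50% with a peak, fell to 30.0%. The share of these copies with a peak rose to 84.2% without variant U1 genes and to 76.9% among those with at least 50% unique words. The median summit position of pseudogenes moved from 106 to 38.0 bp with the summit nearest to the gene start. With 50-base words the median unique share of variant U1 genes was 18.5%, against 39.5%. For the proximal sequence element, the polymerase II share rose to 100% with the core ACCNT. The polymerase III share rose to 100% with up to 3 mismatches, and to 83.3% with either core. The variant U1 share fell to 0.0% with ACCNTNA. The pseudogene share was 2.64% with up to 1 mismatch, 58.7% with up to 3, 2.08% with ACCNTNA and 11.5% with ACCNT. The cores, the pileup ratio and U6 genes alone were chosen after seeing the data.

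Depth limits the weak peaks, since a pileup of 20 fragments has an interval of 12.2 to 30.9. With 1 read kept per position and strand the largest pileup is 328 fragments by construction, and the largest in the list was 293. Whether this ceiling acted was not tested. No paired analysis was possible because no replicate was made of either library.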
